A study of Mus musculus with 18 samples.

Results

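Growth hormone acts on the mouse liver through its receptor and the transcription factors STAT5A and STAT5B, and 10 genes of that route were followed here in the livers and fat of mice on 3 diets. They are the receptor gene Ghr, the factors Stat5a and Stat5b, the feedback inhibitors Cish and Socs2, the circulating growth factor Igf1 and its carrier Igfals, the male-predominant liver genes Hsd3b5 and Slco1a1, and the receptor gene Egfr. The genes were chosen by name for their known place in this route, with earlier results of these data known. All 10 had a row among the 23474 genes listed, found through their Ensembl identifiers. RNA was sequenced from male C57BL/6J mice aged 17 weeks fed for 12 weeks from 5 weeks of age. The control group ate a normal diet (ND), and the others ate high-fat food, either alone (HFD) or mixed with 0.25% by weight of green tea ethanol extract (GT). Liver and epididymal fat gave 3 libraries for each diet, 18 in all, and each diet had been given to 10 individually housed mice. The labels do not tie each library to its own mouse, so p-values measure the spread between these libraries, which may be partly technical.

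Growth hormone from the pituitary binds its receptor on hepatocytes and activates the kinase JAK2, which phosphorylates STAT5A and STAT5B. In male rodents the hormone arrives in pulses, and STAT5B pulses of activity keep male-predominant genes of the liver on and female-predominant genes low. CISH and SOCS2 are made in response to the signal and dampen it, while the repressor BCL6 is held down by it. IGF1 made under growth hormone circulates bound to IGF binding proteins and to the acid-labile subunit encoded by Igfals.

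Levels below are FPKM as deposited, that is, fragments scaled to gene length and to the library's mapped fragments, so genes can be compared per length. A difference is on the scale of log2(FPKM + 1), given ± its standard error from limma, and it understates changes of genes with low FPKM. A gene is called changed where its Benjamini-Hochberg adjusted p over all genes of the fit lay under 0.05. All 10 genes passed the filter of 1 FPKM in at least 3 of the 9 liver libraries, and 8 passed it in fat, where Hsd3b5 and Slco1a1 were at or near 0.

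The liver libraries carried all 10 hepatocyte markers in every diet, except that albumin (Alb) was listed at 0 in HFD 3. Alb stood at 21156 to 28177 FPKM in the other 8 livers. In HFD 3 the other 9 markers ran from 152 (Cps1) to 6645 FPKM (Apoa1). The cause of the 0 was not tested. FPKM totals ran from 680168 to 930139 in liver and from 527904 to 608819 in fat, apart from 1002765 in fat ND 1. That fat library held RNA of testis and epididymis. Its 12 testis markers summed to 102000 FPKM, against 16.4 to 3079 in the other 8. Differences of the genes in fat are therefore given with and without ND 1. The next highest testis sums were those of fat ND 3 (3079) and HFD 1 (2107). The 10 epididymis markers summed to 23010 FPKM in fat ND 1 and to 1584 in HFD 2. Fits without ND 1 therefore still include libraries with such RNA. Skeletal muscle markers, 9 in the table, summed to 0.641 to 3.28 FPKM in the ND livers, 0.334 to 97.9 in the HFD livers and 0.563 to 39.2 in the GT livers. The highest sums were those of HFD 2 and GT 3, followed by HFD 3 (19.6). In the ND livers 6 of the 9 were at 0 throughout (Ckm, Myh1, Myh2, Myh4, Tnnt3 and Pvalb). Endothelial markers of the liver, 6 in number, summed to 20.3 to 26.0, 10.6 to 18.3 and 10.8 to 12.9 on ND, HFD and GT, with Clec4g at 0 throughout. In such bulk samples fewer cells of a type and less RNA per cell cannot be told apart.

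In liver, 4 of the 10 genes (Hsd3b5, Slco1a1, Egfr and Socs2) fell on the high-fat diet, and 3 (Hsd3b5, Egfr and Igfals) were higher with the extract than on the high-fat diet alone. Over all 10670 genes tested in liver, 18.6% were called for HFD against ND and 6.67% were called lower, while 5.36% were called for GT against HFD and 1.14% were called higher. None of the 10 was called for GT against ND by limma, where 2.6% of all genes were, and 2 of the 10 (Igfals and Socs2) had unadjusted p under 0.05 there, against 16.5% of all genes. Groups did not overlap for 6 of the 10 for HFD against ND (44.9% of all genes), 4 for GT against HFD (26.8%) and 1 for GT against ND (21.6%). The median difference of the 10 genes was -0.43, 0.67 and 0.03 in these comparisons, against -0.02, -0.04 and -0.05 over all genes. Comparisons of GT with HFD and of HFD with ND use the same 3 HFD libraries, so a gene low in those libraries differs in both. The 10 genes and the lists used below were chosen with earlier results of these data known. Their counts beside the shares over all genes are therefore descriptions and not tests.

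**Figure D1:**
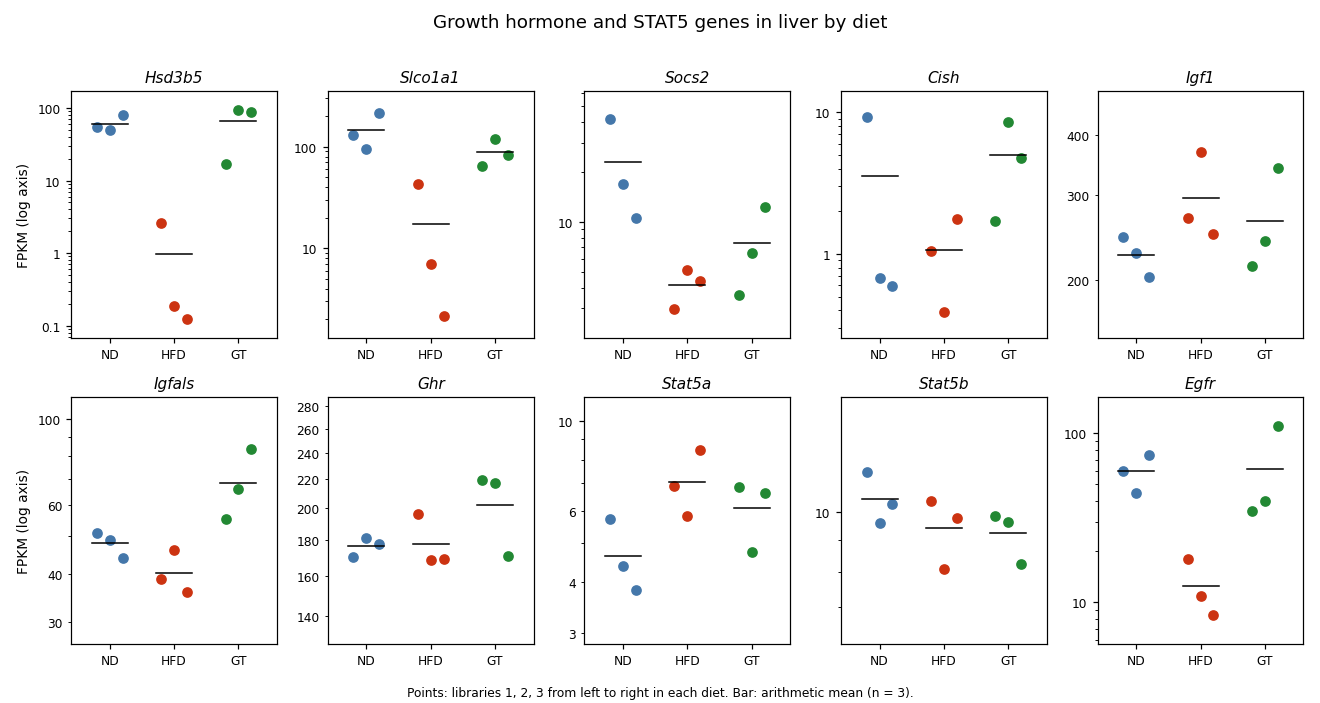
FPKM of the 10 genes in each liver library (log axis), by diet, with the 3 libraries of a diet from left to right and the arithmetic mean as a bar. Hsd3b5, Slco1a1, Egfr and Socs2 are lower in all 3 HFD libraries than in any ND library, while Ghr and Stat5b overlap between diets.

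The receptor gene and both STAT5 genes were not called in any liver comparison. Ghr (ENSMUSG00000055737), which encodes the growth hormone receptor, stood at 170.2, 182 and 178 FPKM in the ND livers, 196, 168 and 169 in the HFD livers and 219, 217 and 171 in the GT livers. The diets overlapped, and the highest 2 levels belonged to GT 1 and GT 2. The difference was 0.01 ± 0.15 for HFD against ND (95% interval -0.33 to 0.35, adjusted p = 0.977) and 0.18 ± 0.15 for GT against HFD (-0.16 to 0.52, adjusted p = 0.52).

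Stat5b (ENSMUSG00000020919), the main STAT5 of male liver, stood at 11.7, 9.62 and 10.3 FPKM on ND, 10.4, 8.07 and 9.80 on HFD and 9.87, 9.66 and 8.24 on GT. The 3 diets overlapped throughout. Its differences were -0.15 ± 0.15 for HFD against ND (95% interval -0.48 to 0.18, adjusted p = 0.517) and -0.02 ± 0.15 for GT against HFD (-0.35 to 0.31, adjusted p = 0.946). The related Stat5a (ENSMUSG00000004043) stood at 5.71, 4.38 and 3.81 FPKM on ND, 6.90, 5.80 and 8.45 on HFD and 6.86, 4.74 and 6.63 on GT. Every HFD level of Stat5a lay above every ND level. It did not pass the test (0.52 ± 0.19, adjusted p = 0.0817), save with quantile scaling of the libraries (adjusted p = 0.0497). Of the 50-base stretches of Stat5b transcripts 11.0% also occur in Stat5a, and 8.21% of those of Stat5a in Stat5b, so reads from these stretches could have been counted for either gene.

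Of the other parts of the signal between receptor and nucleus, Stat3 alone was called. From a list of 18 genes for kinases, phosphatases, other STATs, SOCS proteins and nuclear partners of this route, 15 were tested in liver. For HFD against ND, 1 was lower and 0 were higher, and 14 of 15 differences were negative (median -0.19, against -0.02 over all genes). Over all genes 6.67% were called lower and 11.9% higher, so 1 of 15 called lower is near the share over all genes. With GT against HFD, 1 was higher and 0 were lower (median 0.04, against -0.04 over all genes). Over all genes 1.14% were called higher and 4.22% lower there. For GT against ND 0 of 15 were called, against 2.6% of all genes. The called gene was Stat3 in both comparisons, the STAT that carries interleukin-6 and leptin signals. Stat3 stood at 22.3, 24.3 and 30.9 FPKM on ND, 15.1, 13.5 and 17.9 on HFD and 26.0, 23.3 and 27.2 on GT. All HFD levels lay below all others (-0.70 ± 0.17, adjusted p = 0.0178 against ND; 0.69 ± 0.17, adjusted p = 0.0429 for GT against HFD).

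Jak2, the kinase attached to the receptor, stood at 3.49 to 3.82 FPKM on ND, 2.42 to 3.42 on HFD and 1.96 to 3.46 on GT (-0.31 ± 0.18 for HFD against ND, adjusted p = 0.246). Socs3, an inhibitor that responds mainly to cytokines, stood at 2.97 to 5.87, 3.72 to 4.58 and 5.30 to 7.06 FPKM. All GT levels of Socs3 exceeded all HFD levels without passing the test (0.51 ± 0.20, adjusted p = 0.156). The smallest p-values after Stat3 for HFD against ND belonged to Hnf4a (-0.44, adjusted p = 0.0775), a hepatocyte nuclear factor, Socs6 (-0.36, adjusted p = 0.0905) and the phosphatase gene Ptpn11 (-0.63, adjusted p = 0.0941). For GT against HFD they were those of Socs3 and of the phosphatase genes Ptpn2 (-0.29, adjusted p = 0.242) and Ptpn6 (-0.33, adjusted p = 0.283). The female-predominant repressor Cux2 stayed at 0.0208 to 0.447 FPKM in all 9 livers, below the filter.

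The feedback genes Cish and Socs2 and the repressor Bcl6 differed strongly among livers of the same diet. STAT5 binds DNA at paired half-sites, TTC and GAA, and the promoter windows of the 10 genes in RefSeq, from 250 bases before to 50 bases after an annotated start (build GRCm38.p6), were searched for TTCNNNGAA. The pattern reads the same on both strands. Windows were found for 9 of the 10 genes, 14 in all, with none for Socs2, and 3 of them held a match, 1 of Cish and 2 of Igfals. Across all genes 8.3% of 32851 windows held at least 1 match and 0.457% held 2 or more, as the Cish window does. A match is only a match of letters, and its absence from a window says nothing on STAT5 binding elsewhere. The stretches with the matches, in capitals, are shown because Cish and Igfals are the feedback gene and the carrier gene whose levels are described next. That of Cish is chr9:107296559-107296678 and those of Igfals are chr17:24877594-24877655 and chr17:24878121-24878210, all on the plus strand.
Cish, start at its base 101: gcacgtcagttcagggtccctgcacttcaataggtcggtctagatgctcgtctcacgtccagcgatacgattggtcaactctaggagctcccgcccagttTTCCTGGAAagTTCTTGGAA
Igfals, first start: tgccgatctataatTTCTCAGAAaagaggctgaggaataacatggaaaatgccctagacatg
Igfals, second start: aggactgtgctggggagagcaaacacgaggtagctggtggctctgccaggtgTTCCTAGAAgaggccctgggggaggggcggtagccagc
The first Cish match (chr9:107296659-107296667) begins at base 1 of the transcript and the second (chr9:107296670-107296678) at base 12, and both lie in an exon of 1 of 5 GENCODE M21 transcripts. The Igfals matches lie 236 bases (chr17:24877608-24877616) and 58 bases (chr17:24878173-24878181) before their starts, in introns of 2 and 3 of 6 transcripts and in no exon.

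Cish (ENSMUSG00000032578), which encodes an SH2 protein that blocks the receptor, stood at 9.31, 0.677 and 0.595 FPKM on ND, 1.05, 0.392 and 1.77 on HFD and 1.70, 8.49 and 4.72 on GT. ND 1 and GT 2 were highest, and the diets overlapped. Neither HFD against ND (-0.60 ± 0.75, adjusted p = 0.606) nor GT against HFD (1.41 ± 0.75, 95% interval -0.32 to 3.13, adjusted p = 0.304) passed the test. Socs2 (ENSMUSG00000020027), which encodes the inhibitor whose loss makes mice overgrow, stood at 41.6, 17.0 and 10.5 FPKM on ND, 2.97, 5.11 and 4.38 on HFD and 3.61, 6.50 and 12.4 on GT. All HFD levels of Socs2 lay below all ND levels, and it fell by 2.03 ± 0.46 (adjusted p = 0.0152). With the extract Socs2 overlapped both other diets (0.61 ± 0.46, adjusted p = 0.461 against HFD; -1.42 ± 0.46, adjusted p = 0.143 against ND). Its call for HFD against ND ended without ND 1 (-1.51, adjusted p = 0.054) and without HFD 2, alone (-2.16, adjusted p = 0.0538) or together with GT 3 (adjusted p = 0.0507).

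Bcl6, whose protein competes with STAT5 for sites on DNA, stood at 2.44, 25.7 and 34.7 FPKM on ND, 24.1, 13.6 and 6.19 on HFD and 4.90, 6.01 and 7.79 on GT. The ND liver with the highest Cish and Socs2 held the lowest Bcl6 of all 9. The GT livers held low Bcl6 beside 3 of the 5 highest Cish levels. Across the 9 livers Pearson's r of the log levels was -0.775 for Cish and Bcl6 and 0.448 for Cish and Socs2, points that share libraries and diets. For Bcl6 it was only -0.219 with Socs2, -0.353 with Igfals, -0.0559 with Hsd3b5, 0.119 with Slco1a1 and -0.0178 with Egfr. No Bcl6 difference passed the test (-0.10 ± 0.86 for HFD against ND, adjusted p = 0.946; -0.95 ± 0.86 for GT against HFD, adjusted p = 0.552).

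**Figure D2:**
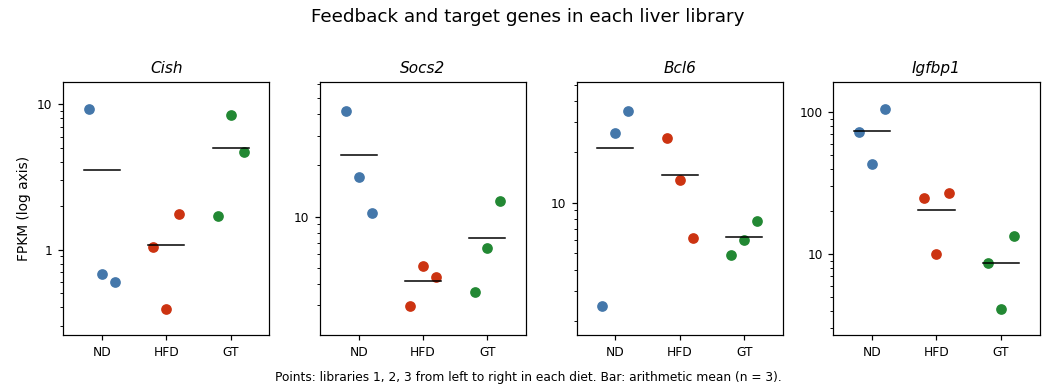
FPKM of Cish, Socs2, Bcl6 and Igfbp1 in each liver library (log axis), with libraries 1 to 3 of a diet from left to right and the arithmetic mean as a bar. ND 1 is the highest ND library for Cish (9.31) and Socs2 (41.6) and the lowest for Bcl6 (2.44), while Igfbp1 is lower in all GT libraries but GT 3 than in every HFD library.

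In the IGF branch, Igfals was higher with the extract while Igf1 was not called. Igf1 (ENSMUSG00000020053), the main hormone made under growth hormone, stood at 245, 227 and 203 FPKM on ND, 269, 369 and 249 on HFD and 214, 240.4 and 342 on GT. Every HFD level lay above every ND level, but the difference did not pass (0.38 ± 0.21, 95% interval -0.09 to 0.84, adjusted p = 0.228). The GT levels overlapped both other diets (-0.16 ± 0.21 against HFD, adjusted p = 0.688).

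Igfals (ENSMUSG00000046070) encodes the acid-labile subunit, which keeps IGF1 in the blood. It stood at 50.9, 48.9 and 44.0 FPKM on ND, 38.8, 46.2 and 35.9 on HFD and 55.4, 65.9 and 83.8 on GT. All 3 GT livers exceeded all livers of both other diets, while HFD and ND overlapped. Igfals rose by 0.74 ± 0.18 with GT against HFD (adjusted p = 0.0429), and the difference was -0.25 ± 0.18 for HFD against ND (adjusted p = 0.341) and 0.49 ± 0.18 for GT against ND (adjusted p = 0.197). This rise passed in 8 of 19 repeats with another setting or library set. The highest adjusted p with a library left out was 0.116 (without HFD 3), and leaving out GT 2, HFD 1, HFD 2 or any ND library also ended it.

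Of 13 further genes of the IGF axis 7 were tested in liver. On HFD 2 rose and 2 fell against ND, where 11.9% of all genes were called higher and 6.67% lower. With GT 2 fell against HFD and 1 was lower than on ND, where 4.22% and 1.33% of all genes were called lower. Medians were -0.21, 0.09 and -0.13, against -0.02, -0.04 and -0.05 over all genes. Igfbp1, the binding protein that insulin represses, stood at 72.4, 43.2 and 106 FPKM on ND, 25.0, 10.1 and 26.8 on HFD and 8.61, 4.11 and 13.4 on GT. It fell by 1.81 ± 0.45 on HFD (adjusted p = 0.0199) and was lower on GT than on ND by 2.98 ± 0.45 (adjusted p = 0.0095), with GT and HFD overlapping (-1.17 ± 0.45, adjusted p = 0.147). Igfbp2, another carrier, stood at 517, 489 and 425 FPKM on ND, 334, 224 and 149 on HFD and 247, 281 and 379 on GT, and fell on HFD by 1.09 ± 0.27 (adjusted p = 0.0203).

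Igfbp3, which forms the ternary complex with IGF1 and the Igfals product, ran the other way. It stood at 2.71, 4.46 and 4.88 FPKM on ND, 5.86, 6.17 and 10.6 on HFD and 3.49, 2.74 and 2.37 on GT. It rose on HFD (0.75 ± 0.24, adjusted p = 0.049) and fell with GT against HFD (-1.11 ± 0.24, adjusted p = 0.0288). Igfbp7, a matrix protein that binds IGFs weakly, likewise rose by 1.28 ± 0.19 (adjusted p = 0.00322) and fell by 1.41 ± 0.19 (adjusted p = 0.00712). In liver Igfbp3 is made mainly by cells other than hepatocytes. Markers of stellate cells and fibroblasts, 8 in number, summed to 84.2 to 112, 101.4 to 169 and 50.3 to 78.1 FPKM on ND, HFD and GT, with Lrat at 0 throughout. The part of such cells in the Igfbp3 and Igfbp7 differences was not tested.

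The male-predominant genes Hsd3b5 and Slco1a1 had the widest range among the 10. Hsd3b5 (ENSMUSG00000038092), a 3-ketosteroid reductase of male liver, stood at 54.5, 49.1 and 80.0 FPKM in the ND livers, 2.58, 0.185 and 0.124 in the HFD livers and 16.9, 95.1 and 87.9 in the GT livers. The HFD libraries lay below all others, and those of GT and ND overlapped. Hsd3b5 fell by 5.17 ± 0.67 on HFD (adjusted p = 0.00292) and rose by 4.99 ± 0.67 with GT against HFD (adjusted p = 0.00932). The fall passed in 18 of 18 repeats and the rise in 17 of 18. The exception was the fit without HFD 2 and GT 3, which had the most muscle RNA (4.37, adjusted p = 0.101). That fit still includes HFD 3, which also held muscle RNA.

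Slco1a1 (ENSMUSG00000041698), an uptake carrier for organic anions and steroid conjugates, stood at 129.6, 95.0 and 217 FPKM on ND, 42.9, 6.93 and 2.16 on HFD and 64.4, 118 and 82.7 on GT. All HFD levels lay below all ND and all GT levels. It fell by 3.76 ± 0.84 on HFD (adjusted p = 0.0209), and the GT difference from HFD did not pass (3.07 ± 0.84, adjusted p = 0.0763), save without HFD 1 (4.12, adjusted p = 0.00175) and with a plain variance prior (adjusted p = 0.0424). The fall lost its call without ND 1, ND 3 or HFD 2 (adjusted p = 0.0745, 0.0779 and 0.0675). The call was also lost without HFD 2 and GT 3 together (0.123) and with only these 2 diets in the fit (0.0654).

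HFD 1 held the highest HFD level of Hsd3b5, Slco1a1 and also Egfr, and GT 1 held the lowest GT level of all 3. Their pairwise r over the 9 livers was 0.92 for Hsd3b5 and Slco1a1, 0.942 for Hsd3b5 and Egfr, and 0.883 for Slco1a1 and Egfr, again over points that share libraries and diets. Near relatives of Hsd3b5 and Slco1a1 did not all share the pattern. Among relatives of the 10 genes 18 were tested in liver. On HFD 5 were lower (Erbb3, Slco1a6, Slco2a1, Socs7 and Stat3) and 0 higher (median -0.26), against 6.67% and 11.9% of all genes (median -0.02). Stat3 is also in the list of the signal and Erbb3 in that of the Egfr family, so these calls are counted again here. With GT 2 were higher than on HFD (Slco1a6 and Stat3) and 0 lower (median 0.27), against 1.14% and 4.22% of all genes (median -0.04). On GT 1 was higher than on ND, against 1.27% of all genes.

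Hsd3b2 and Hsd3b3, relatives of Hsd3b5, stood at 10.3 to 18.9 and 52.8 to 104 FPKM on ND and 15.3 to 19.8 and 74.1 to 109 on HFD, overlapping in both cases (0.23 ± 0.21 and 0.23 ± 0.25, adjusted p = 0.468 and 0.55). Hsd3b2 was higher on GT, at 25.5 to 33.5 FPKM, than on ND (0.97 ± 0.21, adjusted p = 0.0386). Hsd3b7, an enzyme of bile acid synthesis, stood at 335 to 462 FPKM over the 9 livers and was not called. Hsd3b4, with which Hsd3b5 shares 18.2% of its 50-base stretches, was listed at 0 in every library, so reads of the shared stretches may have been counted for Hsd3b5.

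Slco1a6, a relative of Slco1a1, stood at 6.13, 6.34 and 6.95 FPKM on ND, 1.69, 2.50 and 3.30 on HFD and 5.50, 3.93 and 7.97 on GT. It fell on HFD by 1.12 ± 0.23 (adjusted p = 0.0104) and rose with GT against HFD by 0.94 ± 0.23 (adjusted p = 0.0429). Slco1a4, another relative, overlapped between ND (32.5 to 41.5 FPKM) and HFD (31.1 to 40.9) and stood at 16.3 to 29.6 on GT (-0.72 ± 0.22 against HFD, adjusted p = 0.0817). Slco1a1 shares 1.58% of its 50-base stretches with Slco1a4 and 0.94% with Slco1a6.

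Egfr (ENSMUSG00000020122), the epidermal growth factor receptor, whose level in male liver depends on growth hormone, stood at 59.8, 44.6 and 74.6 FPKM on ND, 18.1, 10.9 and 8.42 on HFD and 34.8, 39.8 and 111 on GT. All HFD levels lay below all others, and GT 3 was the highest of the 9. Egfr fell by 2.21 ± 0.40 on HFD (adjusted p = 0.00673) and rose by 2.09 ± 0.40 with GT against HFD (adjusted p = 0.0214). The fall passed in 18 of 19 repeats, the exception being the fit of all 18 libraries (adjusted p = 0.0715). The rise passed in 13 of 19 and lost its call in that fit (adjusted p = 0.23), without HFD 2 (adjusted p = 0.11) or HFD 3 (0.0773), without HFD 2 and GT 3 together (1.51, adjusted p = 0.056), without a filter on low values (0.0544) and with only the 2 diets in the fit (0.0537). GT and ND overlapped (-0.12 ± 0.40, adjusted p = 0.909).

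From 14 genes of the receptor's family, ligands and feedback, 7 were tested in liver. Called for HFD against ND was 1 of the 7, against 18.6% of all genes. The shares over all genes were 5.36% for GT against HFD and 2.6% for GT against ND. Erbb3, a partner receptor, was the called gene for HFD against ND, at 36.5, 32.7 and 38.8 FPKM on ND and 20.3, 16.2 and 20.4 on HFD (-0.89 ± 0.15, adjusted p = 0.00558). It stood at 22.5, 25.9 and 27.1 on GT, above all HFD levels without passing (0.39 ± 0.15, adjusted p = 0.152). None of the 7 was called for GT against HFD, and Lrig3, of a family of receptor inhibitors, was higher on GT than on ND (0.59 ± 0.13, adjusted p = 0.0384).

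**Figure D3:**
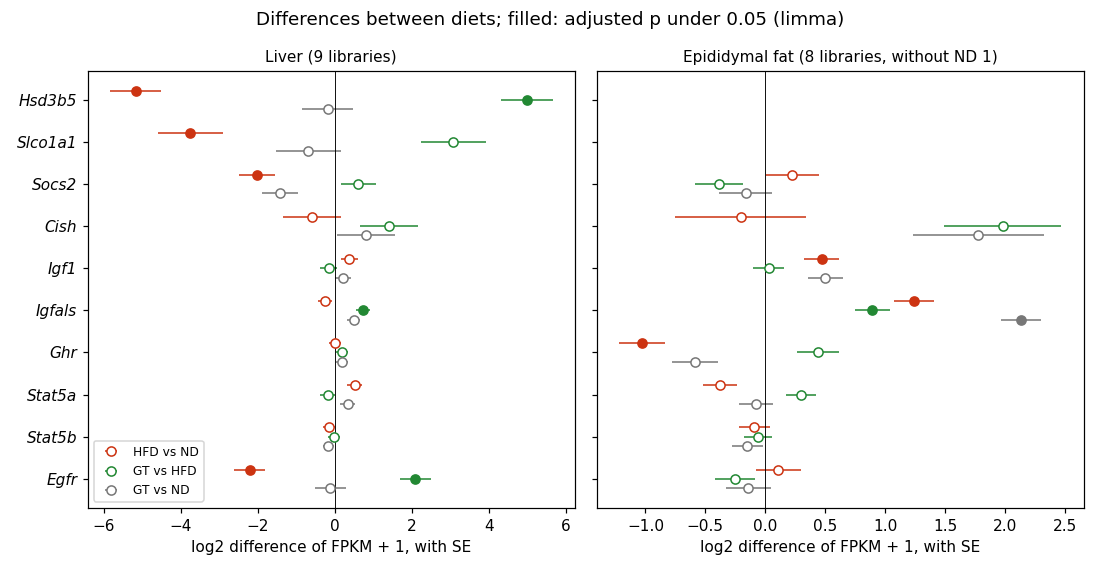
Differences between diets on the log2(FPKM + 1) scale with standard errors, for liver (9 libraries) and for epididymal fat without ND 1 (8 libraries), with different horizontal scales and filled points where adjusted p lay under 0.05. In liver Hsd3b5, Slco1a1, Egfr and Socs2 are filled for HFD against ND, and in fat Igfals is filled in all 3 comparisons.

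Sex-biased genes of the liver beyond the 10 had medians of opposite sign for HFD against ND and for GT against HFD. Their lists were compiled from general knowledge, with earlier results of these data known. Both comparisons use the same 3 HFD libraries, so their signs are not independent. Of 31 male-biased genes 26 were tested, and on HFD 14 were lower and 0 higher than on ND (median -1.04, against -0.02 over all genes). With GT against HFD 6 were higher and 0 lower (median 0.68, against -0.04), and against ND 0 were higher and 2 lower (median -0.19, against -0.05). Over all genes the shares called higher and lower were 11.9% and 6.67% for HFD against ND, 1.14% and 4.22% for GT against HFD, and 1.27% and 1.33% for GT against ND. Of 42 female-biased genes 22 were tested, and on HFD 10 were higher and 2 lower (median 0.35). With GT against HFD 0 were higher and 5 lower (median -0.27), and against ND 3 were higher and 2 lower (median 0.05).

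**Figure D4:**
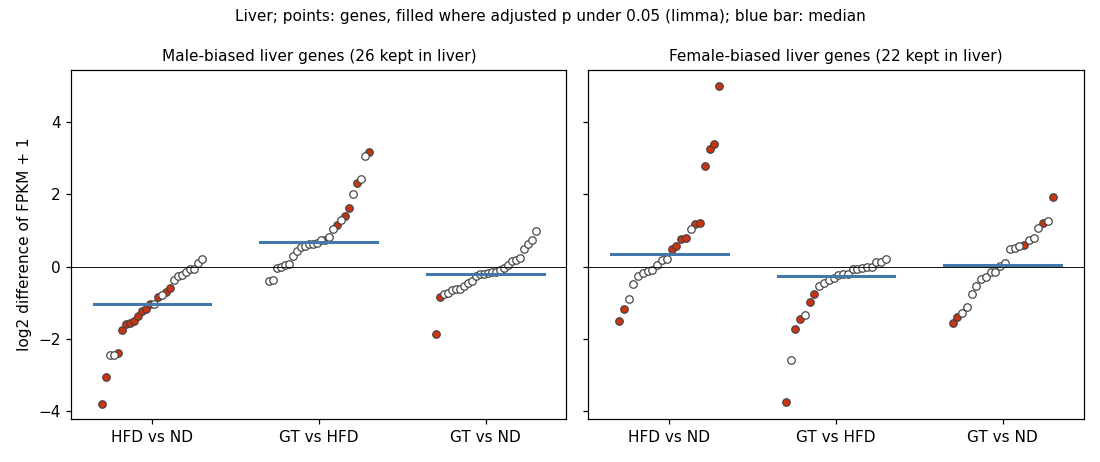
Log2 differences of single male-biased genes (26) and female-biased genes (22) in liver for the 3 comparisons, each point a gene, filled where adjusted p lay under 0.05, with the list median as a bar. For HFD against ND the median is -1.04 in the male-biased and 0.35 in the female-biased list.

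Among male-biased genes the smallest p-values for HFD against ND belonged to the complement gene C8b, the serpins Serpina3k and Serpina1e and the fatty acid hydroxylase Cyp4a12b. C8b stood at 122, 87.6 and 138 FPKM on ND, 31.7, 19.9 and 14.4 on HFD and 62.2, 84.9 and 55.3 on GT. It fell by 2.39 ± 0.28 (adjusted p = 0.00115) and rose by 1.62 ± 0.28 with GT against HFD (adjusted p = 0.0144). Cyp4a12b stood at 71.2, 66.2 and 81.2, then 23.1, 6.98 and 2.72, then 45.1, 41.9 and 42.5 FPKM, and fell by 3.04 ± 0.50 (adjusted p = 0.00531) and rose by 2.30 ± 0.50 (adjusted p = 0.0317). As for Hsd3b5, HFD 1 held the highest of the 3 HFD levels of both genes. Unlike for Hsd3b5, GT 1 did not hold the lowest GT level of either. GT 1 was the highest GT library for Cyp4a12b, and GT 3 the lowest for C8b.

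Serpina1e and the complement gene C6 had the other smallest p-values for GT against HFD, rising by 3.17 ± 0.64 (adjusted p = 0.0288) and 1.41 ± 0.30 (adjusted p = 0.0276). Elovl3, an elongase of very long fatty acids, and Serpina12 were lower on HFD and stayed lower on GT than on ND (-1.86 ± 0.36, adjusted p = 0.0256, and -0.85 ± 0.18, adjusted p = 0.0326).

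Of the female-biased genes, Cyp2a22, Slc22a27, Cyp2b9 and Cyp4a10 had the smallest p-values for HFD against ND. The transporter gene Slc22a27 stood at 0.236, 0.815 and 0.108 FPKM on ND, 5.45, 8.51 and 12.6 on HFD and 3.67, 1.22 and 1.25 on GT. It rose by 2.80 ± 0.33 (adjusted p = 0.00126) and fell by 1.72 ± 0.33 with GT against HFD (adjusted p = 0.0218). Cyp2a22 stood at 2.36, 7.63 and 3.66, then 28.1, 58.4 and 68.1, then 27.1, 15.2 and 15.5 FPKM, and stayed higher on GT than on ND (1.93 ± 0.39, adjusted p = 0.0285). For Slc22a27 and Cyp2a22, HFD 1 held the lowest HFD level and GT 1 the highest GT level, the reverse of Hsd3b5.

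Cyp4a10, a fatty acid hydroxylase in the female-biased list that also answers to PPAR alpha, went against its list, at 1904 to 2224 FPKM on ND and 662 to 770.4 on HFD (-1.50 ± 0.20, adjusted p = 0.00176). Nipal1 was lower as well (-1.18 ± 0.29, adjusted p = 0.0192). Genes with the smallest p-values for GT against HFD were Cyp2b9 (-3.75 ± 0.62, adjusted p = 0.0153), Slc22a27, Lpl (-0.97 ± 0.19, adjusted p = 0.0232), which encodes lipoprotein lipase, and Cyp17a1 (-1.46 ± 0.30, adjusted p = 0.0262), an enzyme of steroid synthesis.

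For the 5 genes called in a liver comparison, the 3 genes with the highest Pearson's r over the 9 liver libraries on the log scale were sought among all tested genes. Serpina1e (0.964) stood with Ganab (0.976) and Dlc1 (0.964) beside Hsd3b5, while Cyp7b1 (0.987), Cyp4a12b (0.984) and Serpina3k (0.969) stood beside Slco1a1. Arhgap42 (0.979), C6 (0.97) and Atg9a (0.97) were nearest to Egfr, and Mocs1 (0.95), Mup18 (0.937) and Ces3b (0.931) to Igfals. Nearest to Socs2 were Zbtb7b (0.97), Ccnt1 (0.957) and Ctu1 (0.951). Of these 15 genes, Serpina1e, Serpina3k, Cyp7b1, Cyp4a12b and C6 are also in the male-biased list, which holds 26 of the 10670 tested genes. That list was compiled with earlier results of these data known. Each r was picked as among the highest, over points that share libraries and diets, so the overlap is not a test.

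In epididymal fat 8 of the 10 genes were tested, and none was called in any comparison with all 9 libraries by limma, where 5.65% of all genes were called for HFD against ND, 0.0% for GT against HFD and 0.639% for GT against ND. Without ND 1, Igfals and Igf1 were higher and Ghr lower on HFD than on ND, and Igfals was higher with GT than on either other diet. Called shares over all genes were then 27.4% for HFD against ND (17.8% higher, 9.62% lower), 1.7% for GT against HFD (0.894% higher) and 10.7% for GT against ND (7.5% higher). With all 9 libraries the counts at unadjusted p under 0.05 were 1 of 8 for HFD against ND (Igfals), 1 for GT against HFD (Cish) and 2 for GT against ND (Cish and Igfals), against 20.5%, 3.39% and 20.4% of all genes. With ND 1, groups did not overlap for 2, 4 and 3 of the 8 genes, all higher, against 27.5%, 35.1% and 29.2% of all genes. Without it, 2 were apart as higher and 3 as lower for HFD against ND (50.2% of all genes). The counts were 4 and 0 for GT against HFD (36.9%) and 3 and 1 for GT against ND (45.5%).

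**Figure D5:**
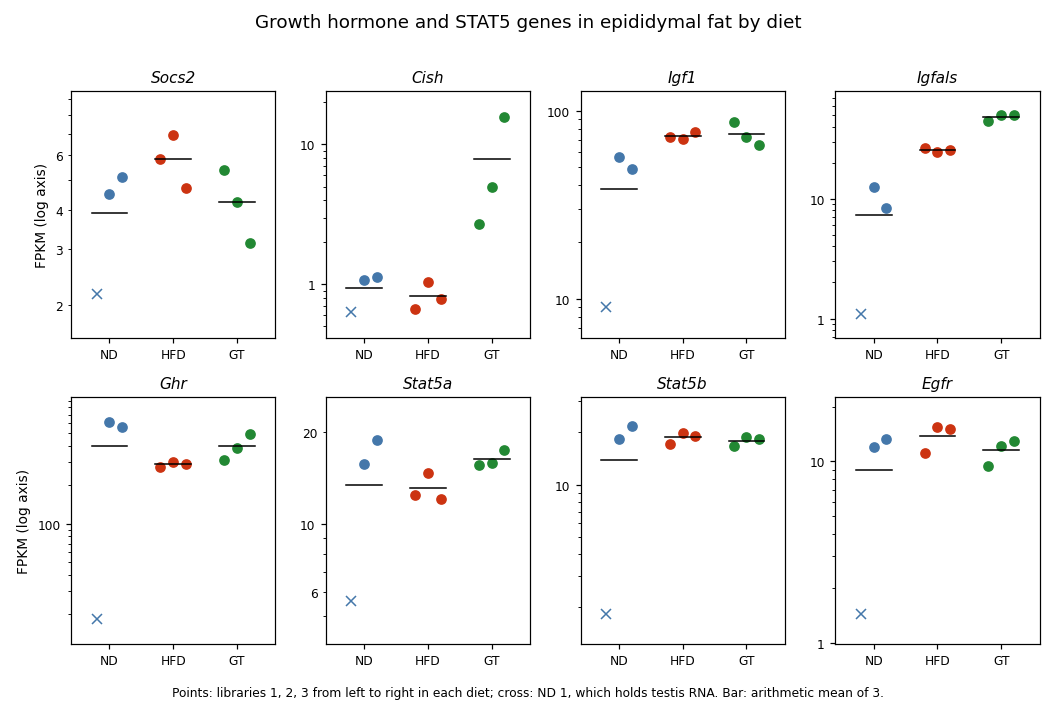
FPKM of the 8 genes tested in epididymal fat in each library (log axis), by diet, with the arithmetic mean of 3 as a bar and ND 1, which holds testis RNA, as a cross. ND 1 is the lowest library for all 8 genes, and Igfals is higher in all GT than in all HFD libraries.

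Ghr was the most abundant of the genes in fat, at 18.2, 618 and 563 FPKM on ND, 276, 299 and 291 on HFD and 311, 389 and 499 on GT. Its order depended on ND 1, whose level was far below all others. With ND 1 the HFD difference from ND was 0.62 ± 1.20 (adjusted p = 0.753), and without it Ghr fell by 1.03 ± 0.19 (adjusted p = 0.00645). All GT levels lay above all HFD levels without passing (0.44 ± 1.20, adjusted p = 1.0 with ND 1; 0.44 ± 0.17, adjusted p = 0.186 without). The fat hormone gene Adipoq stood at 202 FPKM in ND 1 and at 2781 and 1826 in the other ND libraries.

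Stat5a stood at 5.63, 15.7 and 18.8 FPKM on ND, 12.4, 14.6 and 12.1 on HFD and 15.5, 15.8 and 17.4 on GT, and Stat5b at 1.80, 18.4 and 21.6, then 17.2, 19.8 and 19.1, then 16.6, 18.8 and 18.3. With all 9 libraries the HFD differences from ND were 0.11 ± 0.39 for Stat5a (adjusted p = 0.87) and 0.88 ± 0.71 for Stat5b (adjusted p = 0.452). Without ND 1 both had the other sign and still did not pass, at -0.38 ± 0.14 (adjusted p = 0.0839) and -0.09 ± 0.13 (adjusted p = 0.643). All GT levels of Stat5a lay above all HFD levels (0.30 ± 0.39, adjusted p = 1.0 with ND 1; 0.30 ± 0.13, adjusted p = 0.213 without). Socs2 stood at 2.17, 4.49 and 5.11 FPKM on ND, 5.81, 6.95 and 4.71 on HFD and 5.37, 4.24 and 3.15 on GT. HFD and ND levels of Socs2 overlapped in fat (0.51 ± 0.32, adjusted p = 0.344 with ND 1; 0.22 ± 0.22, adjusted p = 0.489 without).

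Cish stood at 0.635, 1.07 and 1.12 FPKM on ND, 0.661, 1.03 and 0.783 on HFD and 2.68, 4.97 and 15.8 on GT. All 3 GT libraries exceeded all libraries of both other diets, with a wide range among them. The difference of GT from HFD was 1.98 ± 0.51 with all 9 libraries (unadjusted p = 0.00458, adjusted p = 1.0) and 1.98 ± 0.49 without ND 1 (adjusted p = 0.0818). Bcl6 stood at 0.772, 27.5 and 37.8 FPKM on ND, 20.8, 19.8 and 21.0 on HFD and 15.6, 21.3 and 10.3 on GT, and r of Cish and Bcl6 over the 8 libraries without ND 1 was -0.717. Over the same libraries r was -0.777 for Cish and Socs2, against 0.448 in liver, and 0.398 for Socs2 and Bcl6. These points also share diets. The GT library with the highest Cish (GT 3) held the lowest Bcl6 of these 8, and GT 3 also held the lowest Socs2 of the 8.

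Igf1 stood at 9.05, 56.4 and 49.1 FPKM in the fat of ND mice, 72.4, 70.4 and 77.4 on HFD and 87.5, 72.3 and 66.0 on GT. Every HFD library exceeded every ND library, and Igf1 was called higher without ND 1 (0.47 ± 0.15, adjusted p = 0.0446) but not with it (1.28 ± 0.61, adjusted p = 0.267). GT and HFD overlapped (0.03 ± 0.61, adjusted p = 1.0 with ND 1; 0.03 ± 0.13, adjusted p = 0.919 without). Markers of macrophages, cells that can also make Igf1, summed to 54.8 (ND 1) to 512.5 FPKM on ND, 2663 to 3742 on HFD and 1120 to 2472 on GT over 8 markers, of which the Kupffer cell marker Clec4f was at 0 on ND and GT and at most 0.02 on HFD. Adipocyte markers, 10 in all, summed to 7520 to 37510, 17650 to 20280 and 25340 to 30030. The part of these cells in the differences in fat was not tested. Without ND 1, the list of 15 other receptor and JAK2 route genes tested in fat had 2 higher and 2 lower on HFD than on ND. The 10 genes of the IGF axis had 3 higher (Igf2r, Igfbp3 and Igfbp7) and 3 lower (Igf2, Igfbp4 and Stc2). Over all genes 17.8% were then called higher and 9.62% lower. For GT against HFD neither list had a called gene, and with ND 1 the HFD counts were 2 and 0 in the first list and 0 and 0 in the other.

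Igfals stood at 1.09, 12.5 and 8.38 FPKM in fat on ND, 26.4, 24.6 and 25.7 on HFD and 44.3, 50.5 and 50.5 on GT. The 3 diets were fully apart in the order ND, HFD, GT, with or without ND 1. Without ND 1 Igfals rose by 1.24 ± 0.17 on HFD (adjusted p = 0.00184), by a further 0.89 ± 0.15 with GT (adjusted p = 0.0457) and by 2.13 ± 0.17 from ND to GT (adjusted p = 0.00187). With all 9 libraries the values were 2.05 ± 0.61 (adjusted p = 0.109), 0.89 ± 0.61 (adjusted p = 1.0) and 2.94 ± 0.61 (adjusted p = 0.0826). The 10 hepatocyte markers summed to 245.6 to 3409 FPKM in fat on ND, 1116 to 1181 on HFD and 1479 to 2590 on GT. Most of this was Trf (141 to 1791 FPKM) and Cyp2e1 (65.3 to 1612), while albumin stood at 0.947 to 8.40. The other 7 (Apoa1, Apob, Ttr, Cps1, Tat, Serpina1a and Fgb) stood at no more than 1.36 FPKM in any fat library. The part of hepatocyte RNA in the Igfals levels in fat was not tested. The GT levels of Igfals in fat were near those in liver (44.3 to 50.5 against 55.4 to 83.8 FPKM), a comparison of levels across tissues without a test.

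Egfr stood at 1.44, 12.1 and 13.4 FPKM in fat on ND, 11.2, 15.5 and 15.0 on HFD and 9.40, 12.2 and 12.9 on GT, with overlap among all 3 diets. Its HFD difference was 0.94 ± 0.63 with ND 1 (adjusted p = 0.374) and without it 0.11 ± 0.19 (95% interval -0.32 to 0.54, adjusted p = 0.699). Hsd3b5 was listed at 0 in 8 fat libraries and at 0.0670 in ND 1, and Slco1a1 at 0 in 7, at 0.115 in ND 1 and at 0.0289 in GT 2. Neither could be compared between diets in fat.

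Differences between tissues in the response to the high-fat diet were tested directly over the 10042 genes kept in both, of which 8.53% were called and 5.98% were called lower in liver. Without fat ND 1 the shares were 21.5% called, 11.9% lower and 9.69% higher. For 3 of the 8 genes the HFD difference was lower in liver than in fat, namely Egfr (-3.15 ± 0.80, adjusted p = 0.0257), Socs2 (-2.54 ± 0.63, adjusted p = 0.0219) and Igfals (-2.30 ± 0.65, adjusted p = 0.0403). Without ND 1 these were -2.32 ± 0.52, -2.25 ± 0.60 and -1.49 ± 0.25 (adjusted p = 0.00498, 0.0149 and 0.000576). The Igfals call held in 9 of 25 repeats and in 4 of 18 with a library left out (adjusted p up to 0.092), against 12 of 18 for Egfr (up to 0.0714) and 15 of 18 for Socs2 (up to 0.0593). Without ND 1, Ghr and Stat5a were also called with a higher difference in liver (1.04 ± 0.24, adjusted p = 0.00629, and 0.89 ± 0.25, adjusted p = 0.0178), against -0.61 ± 1.24 and 0.41 ± 0.44 with ND 1. For GT against HFD limma called 0 of the 8 and 0.00996% of all genes, and 1 of the 8 (Egfr) had unadjusted p under 0.05 (2.34 ± 0.80, adjusted p = 0.576), against 6.35% of all genes. Without ND 1 Egfr was called higher (2.34 ± 0.49, adjusted p = 0.0177), where 3.88% of all genes were called and 1.09% were called higher.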

How the data were processed

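RNA of liver and epididymal fat was sequenced from 3 libraries per diet and tissue. The authors deposited FPKM per gene, and the submitters' processing notes name CASAVA 1.8.2, STAR 2.4.0 and Cufflinks 2.1.1. No genome build for the FPKM is named there or in the file header. Read numbers were not analysed here, so the depth behind each FPKM is unknown and no counting interval is given. Of 23474 identifiers 22671 were given a symbol from GENCODE M21. Levels were tested as log2(FPKM + 1) with limma 3.58.1 (R 4.3.3; variance trend, robust prior; Python 3.11.15 for the rest), with a mean per diet, in genes at 1 FPKM or more in at least 3 of 9 libraries of the tissue, and Benjamini-Hochberg adjustment over all genes. Responses of liver and fat were compared in a fit of all 18 libraries, treated as independent. The 10 genes and the lists were chosen with earlier results of these data known. Beside the 10 genes, up to 4 genes of smallest p per list and liver comparison are named, together with Jak2, Socs3, Bcl6, Cux2, Igfbp1, Igfbp2, Igfbp3 and the Hsd3b and Slco1a relatives. The fits were also run on simulated data with independent normal noise for each gene and no outlying library. The outcome is not given here, and no result rests on it. Promoter windows are those of RefSeq, and shared 50-base stretches were counted in GENCODE M21 transcripts. Alternatives changed the added constant, filter, scaling, variance prior, libraries and diets in the fit.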

Additional observations from a re-analysis of the deposited data

Results flagged for a closer look

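The response of 3 genes to the high-fat diet differed between liver and fat by a direct test, the difference of the tissue differences in limma's fit of all 18 libraries. For Egfr it was -3.145 (adjusted p = 0.0257), from -2.21 in liver and 0.94 in fat. For Socs2 it was -2.541 (adjusted p = 0.0219), from -2.03 and 0.51. For Igfals it was -2.297 (adjusted p = 0.0403), from -0.25 and 2.05. All 3 fat values include ND 1, which holds testis RNA, and without it the differences were -2.32, -2.25 and -1.49, with adjusted p = 0.00498, 0.0149 and 0.000576. Leaving out other libraries often ended the calls. With each of the 18 libraries left out in turn, Egfr was called 12 times (adjusted p up to 0.0714), lost without fat HFD 2 or HFD 3 or liver HFD 2, HFD 3, ND 1 or ND 3. Socs2 was called 15 times (up to 0.0593), lost without fat HFD 2 or liver HFD 1 or ND 1. Igfals was called only 4 times (up to 0.092), and over all 25 alternatives 9 times.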

How the results depend on the processing

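Over all alternatives 1412 values of single genes were recomputed. Of these, 1339 kept their side of the threshold and any called direction (48 of them changed sign without a call in either fit), 53 lost a call, 17 gained one and 3 reversed. The 3 reversals are Ghr on HFD against ND in fat (0.62 with all libraries; -1.029 without ND 1; -0.9962 without ND 1 and HFD 1, an alternative chosen after seeing the data) and its liver minus fat difference (-0.61; 1.037 without fat ND 1). With single libraries left out, these 2 values ran from -1.029 to 1.477 and from -1.469 to 1.037. In liver, 4 genes were called for HFD against ND, but 1 in the fit of 18 libraries, which covers only the 8 genes kept in both tissues and so could retest Socs2 (called) and Egfr (not called) but not Hsd3b5 and Slco1a1, 2 without HFD 2 and GT 3, and 2 to 4 with a library left out (2 without ND 1 or HFD 2). For GT against HFD 3 were called, but 1 with no filter, 0 in the fit of 18 libraries (where Egfr and Igfals lost their calls and Hsd3b5 was not tested), 1 with only the compared diets, 1 without HFD 2 and GT 3, and 1 to 3 with a library left out (1 without HFD 2 or HFD 3). In fat, 0 were called for HFD against ND, but 1 in the fit of 18 libraries, 2 without ND 1 and HFD 1, and 0 to 3 with a library left out (3 without ND 1, 1 without ND 2). For GT against HFD 0 became 1 with only the compared diets, and 0 to 1 with a library left out (1 without ND 1). For GT against ND 0 became 1 in the fit of 18 libraries, 1 with quantile scaling, 1 without ND 1 and HFD 1, and 0 to 1 with a library left out (1 without ND 1 or ND 2). For liver minus fat on HFD against ND 3 became 5 with no filter, where the added calls were Hsd3b5 and Slco1a1. The filter had kept these genes, at or near 0 in fat, out of the main fit. The count was 1 with a replicate block, and 0 to 5 with a library left out (5 without fat ND 1, 0 without fat HFD 2 or liver ND 1). For liver minus fat on GT against HFD 0 became 1 without fat ND 1 (0 to 1 with a library left out). Beyond which genes a fit covered, the cause of these changes was not tested. Deviations of libraries with the same replicate number correlated from -0.301 to 0.418 in liver and from -0.0692 to 0.643 in fat. Those of libraries with different numbers correlated from -0.403 to 0.399 in liver and from -0.741 to 0.66 in fat. These ranges overlap widely, so they do not settle whether the numbers pair the samples. Counts over all genes moved as well, for liver HFD against ND from 1980 to 147 in the fit of 18 libraries. Read depth is unknown, so how far it limits low genes such as Cish cannot be given.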
